A study of Mus musculus with 22 samples.

Results

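The regions described here are the lamin A/C regions of mouse dermal fibroblasts that were listed with both lamin antibodies in cells with and without Lap2alpha. They were chosen by position: a region of the WT 3A6 list at 20 cycles was called constant if at least 1 bp of it overlapped a region in each of 3 other lists, WT E1, KO 3A6 and KO E1, all at 20 cycles. Of 182893 WT 3A6 regions, 8972 met the rule, which is 4.91% of them. The other 173921 are called the remaining regions below, and 12926 of those overlapped WT E1 but neither KO list and are called WT-only regions.

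The study mapped lamin A/C (antibodies 3A6 and E1), Lap2alpha (antibody 1H11), BRG1 and CHD4 by ChIP-seq, in which DNA bound to a protein is pulled down with an antibody and sequenced. The 2 genotypes were wildtype (WT) fibroblasts and fibroblasts lacking Lap2alpha (KO); the labels give no further allele and no age, sex or number of animals, and Lap2alpha itself was listed in WT cells only. Chromatin was fixed with DSG plus formaldehyde and sheared for 16 or 20 cycles of sonication. Each genotype, antibody and number of cycles had 1 library, so no test was possible between genotypes; 18 of 22 libraries had a region list, and the 4 input libraries were not analysed here.

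A-type lamins are filament proteins that build the lamina under the inner nuclear membrane, where they hold silent, gene-poor chromatin, and a part of them moves freely in the nuclear interior. Lap2alpha is a LEM-domain protein without a membrane anchor that binds this interior pool of lamin A/C. BRG1 is an ATPase of SWI/SNF remodelling complexes, which open chromatin at promoters and enhancers, and CHD4 is the ATPase of the NuRD complex, which pairs remodelling with histone deacetylation.

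The label of the cells was checked with BRG1, which sits at the ends of active genes. BRG1 regions lay within 1 kb of a gene end for 27 to 31 of 32 fibroblast and matrix genes in the 4 BRG1 lists, against 36.2% to 63.0% of all 21887 protein-coding genes. Of 19 keratinocyte genes 1 to 8 had such a region, of 16 leukocyte genes 0 to 10, and of 12 endothelial genes 1 to 5.

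The 3 lists that chose the regions each took a larger share of WT 3A6 regions alone than they did jointly: 22.0% overlapped WT E1, 28.6% KO 3A6 and 23.4% KO E1, while 49.8% overlapped none of them. These shares chose the set and are given as a description. Members just inside the rule were barely shared: 328 had an overlap of 10 bp or less in their weakest list. Over all members the median weakest overlap was 162 bp. Outside the rule, 25433 regions overlapped 2 of the 3 lists, with a median gap of 1352 bp to the list they missed. Of these, 253 lay 10 bp or less from that list.

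Constant regions were wide for this list. Their median width was 524 bp (quartiles 362 and 752.5 bp, widest 3220 bp) against 314 bp for the remaining and 384 bp for the WT-only regions, and together they covered 5.27 Mb. The share of WT 3A6 regions that were constant was 1.57% below 250 bp, 3.81% from 250 bp, 9.42% from 500 bp, 18.6% from 750 bp and 32.9% from 1000 bp. A wide region meets other regions more easily, so width enters every comparison below. For each single list, shares of the remaining regions weighted to the widths of the constant regions are given too; shares over several lists and over places in the genome are plain. Only part of each member was shared: WT E1 covered 46.3% of their summed length, KO 3A6 43.6% and KO E1 47.1%.

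Few constant regions touched a promoter, and 4 promoter windows show what such a contact looks like. They are RefSeq windows on GRCm38.p6, from 250 bases before to 50 after a gene start, printed 5′ to 3′ on the gene's strand, and capitals mark the bases covered by all 4 lamin A/C lists at 20 cycles. Zfp982 and Zfp985 are shown because these neighbouring zinc finger genes lie in a stretch that holds 21 of the 160 members found in all 8 lamin lists, Robo2 as a long gene for an axon guidance receptor, and Dynlrb2, a dynein light chain gene, because remodeller lists covered the same window. The 4 were chosen after their values were seen.
Zfp982, chr4:147492167-147492466, + strand: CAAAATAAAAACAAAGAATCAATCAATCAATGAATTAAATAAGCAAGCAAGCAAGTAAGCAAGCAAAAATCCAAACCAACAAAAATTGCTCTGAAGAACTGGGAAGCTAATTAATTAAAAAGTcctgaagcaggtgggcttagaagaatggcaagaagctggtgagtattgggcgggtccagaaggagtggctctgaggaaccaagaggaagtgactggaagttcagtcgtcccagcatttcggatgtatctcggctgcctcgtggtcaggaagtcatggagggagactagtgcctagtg
Zfp985, chr4:147553027-147553326, + strand: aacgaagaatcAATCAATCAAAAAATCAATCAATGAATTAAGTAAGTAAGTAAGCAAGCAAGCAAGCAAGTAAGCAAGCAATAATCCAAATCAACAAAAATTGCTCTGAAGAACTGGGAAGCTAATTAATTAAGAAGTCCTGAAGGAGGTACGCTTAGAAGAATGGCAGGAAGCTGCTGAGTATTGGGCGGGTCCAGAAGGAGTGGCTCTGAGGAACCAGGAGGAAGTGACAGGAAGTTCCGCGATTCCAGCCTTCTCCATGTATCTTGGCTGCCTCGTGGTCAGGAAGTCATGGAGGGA
Robo2, chr16:75447244-75447543, - strand: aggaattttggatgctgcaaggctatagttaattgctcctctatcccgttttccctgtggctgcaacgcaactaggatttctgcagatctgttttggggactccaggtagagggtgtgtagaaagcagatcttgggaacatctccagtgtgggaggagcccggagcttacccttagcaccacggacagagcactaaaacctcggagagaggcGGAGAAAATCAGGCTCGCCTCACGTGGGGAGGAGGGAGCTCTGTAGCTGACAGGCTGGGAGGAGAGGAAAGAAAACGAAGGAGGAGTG
Dynlrb2, chr8:116504765-116505064, + strand: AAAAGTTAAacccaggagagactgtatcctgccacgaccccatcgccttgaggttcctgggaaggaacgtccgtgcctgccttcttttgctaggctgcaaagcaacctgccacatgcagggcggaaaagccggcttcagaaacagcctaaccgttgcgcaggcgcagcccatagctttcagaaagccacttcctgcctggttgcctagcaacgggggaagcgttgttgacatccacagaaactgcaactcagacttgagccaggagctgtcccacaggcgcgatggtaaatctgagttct

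The shared stretch was 123 bases long in Zfp982, 289 in Zfp985, 88 in Robo2 and 9 in Dynlrb2. Zfp982 and Zfp985 have near-copies of one promoter, with 260 of 283 aligned bases identical (91.9%), so reads of the 2 may not be assignable to one gene; this was not tested. Both windows lay wholly inside a constant region, of 1270 bp and 832 bp. The WT E1 list at 16 cycles covered 198 bases of the Zfp982 and 167 of the Zfp985 window. The 2 windows differed in other lists: WT CHD4 at 20 cycles covered 193 bases and KO lamin E1 at 16 cycles 180 bases of Zfp985 and 0 of Zfp982. In Robo2 the constant region covered 198 bases of the window around the gene start, and the KO BRG1 list at 20 cycles covered 164. At Dynlrb2 the whole window of 300 bases was listed for WT BRG1 and WT CHD4 at 20 cycles and for KO lamin E1 at 16 cycles, and 198 bases for Lap2alpha at 20 cycles.

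In the lists at 16 cycles, which the rule did not use, constant regions were found more often than remaining regions in all 4 lamin libraries. WT 3A6 at 16 cycles held 3753 constant regions, 41.8% (95% Wilson interval 40.8 to 42.9), against 21.8% of the remaining, 29.3% of the WT-only and 22.8% of all WT 3A6 regions at 20 cycles. KO 3A6 held 1864, 20.8% (19.9 to 21.6), against 16.3%, 14.1% and 16.5%. WT E1 held 2169, 24.2% (23.3 to 25.1), against 4.93%, 13.4% and 5.88%.

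KO E1 held 3165, 35.3% (34.3 to 36.3), against 7.7%, 14.6% and 9.06% in the same order. The separation was thus wide for E1, by factors of 4.9 in WT and 4.58 in KO, and narrow for KO 3A6, by a factor of 1.27. With the remaining regions weighted to the widths of the constant ones, their shares were 29.4% in WT 3A6, 17.2% in KO 3A6, 8.83% in WT E1 and 11.6% in KO E1, below the constant regions in each list. On the 18 chromosomes with at least 50 constant regions, the constant share was the higher one on 18 of 18 in all 4 lists. Intervals cover counting error only, and neighbouring regions are not independent.

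**Figure D1:**
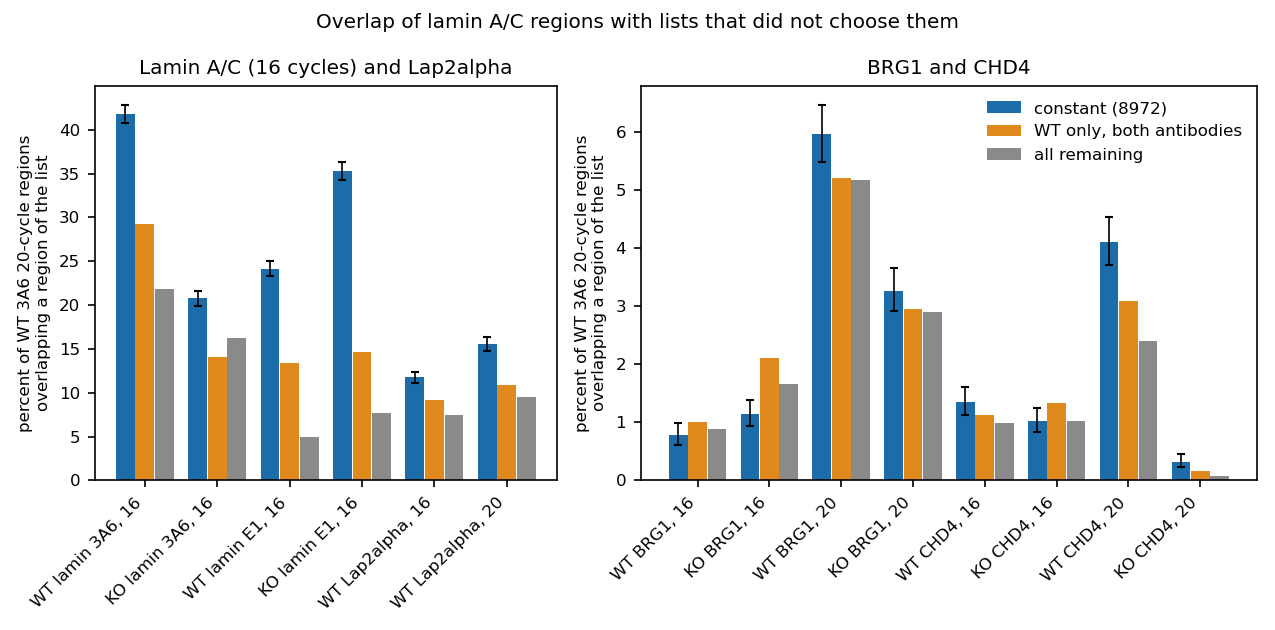
Percent of regions overlapping each list that did not choose them: constant, WT-only and all remaining regions, with 95% Wilson intervals on the constant bars; numbers after list names are cycles of sonication. In the left panel the constant bars are the highest in every lamin and Lap2alpha list; in the right panel, on a smaller scale, BRG1 bars differ little and the constant bars are lower for both BRG1 lists at 16 cycles.

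The word constant holds for 20 cycles and much less for 16. Only 160 constant regions, 1.78%, were in all 4 lamin lists at 16 cycles, against 0.13% of the remaining and 0.211% of all. Another 908 were in 3 lists (10.1%; 1.67% of all), 2185 in 2 (24.4%; 8.48%), 3217 in 1 (35.9%; 31.5%) and 2502 in none (27.9%; 58.2%). In both WT lists at 16 cycles were 1291 constant regions (14.4%; 2.74% of all) and in both KO lists 761 (8.48%; 1.78%). In both WT and neither KO list at 16 cycles were 528 constant regions (5.88%; 1.47% of all), and in both KO and neither WT list 296 (3.3%; 0.955%).

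The 2 antibodies went opposite ways between genotypes at 16 cycles. The share of constant regions held by the list was lower in KO than in WT for 3A6, a difference of -21.1 percentage points, and higher in KO for E1, a difference of 11.1 points. The 3A6 difference was negative on 15 of 18 chromosomes and the E1 difference positive on 16 of 18. For 3A6 this ran against list length, since the KO list at 16 cycles had 188132 regions over 44.0 Mb and the WT list 86033 over 23.5 Mb; for E1 it ran with it, 107717 regions in KO and 43798 in WT. The KO 3A6 list at 16 cycles also covered chromosome 8, which holds many members, at 7.72 bp per kb against 16.2 over the genome. The part of list length or chromosome in these differences was not tested. The same directions held in the other regions: KO minus WT was -5.53 points for 3A6 and 2.77 for E1 in the remaining regions, -15.2 and 1.21 in the WT-only regions, and -6.29 and 3.18 over all WT 3A6 regions.

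The 160 regions found in all 8 lamin lists were unevenly placed. Over all constant regions their share was 1.78%. Chromosome 4 held 25 among its 352 constant regions, and chromosome 9 held 2 among 679. Chromosome 8 held 28 among 1607, chromosome 2 26 among 1422, chromosome 5 18 among 753 and chromosome 17 14 among 803. Chromosomes 7, 10, 13, 16 and 18 held 0, but have only 98, 152, 31, 40 and 108 constant regions. Of the 25 on chromosome 4, 21 lay in a stretch of 1363 kb, chr4:146449030-147812229, that holds 8 zinc finger genes with constant regions in their bodies (Zfp978, Zfp979, Zfp981, Zfp982, Zfp984, Zfp985, Zfp992 and Zfp993); the stretch was singled out after its values were seen. In it 67 of 220 WT 3A6 regions were constant, 30.5%.

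Of the constant regions of this zinc finger stretch, the lamin lists at 16 cycles held 77.6% (WT 3A6), 40.3% (KO 3A6), 91.0% (WT E1) and 79.1% (KO E1). The stretch was singled out with these values known, and its members in all lamin lists raise them. They are therefore a description. The remaining regions of the same stretch stood at 51.0%, 16.99%, 28.1% and 22.2%. Lap2alpha was listed at 58.2% of its constant regions at 16 cycles and 34.3% at 20 cycles, against 20.9% and 13.7% of its remaining regions. Of its genes, Zfp982 and Zfp985 have the near-copy promoters printed above; the other pairs were not compared. Whether regions gather reads from several copies was not tested.

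By the rule for gene ends, the genes with a region in all 8 lamin lists within 1 kb of an end were 7. Zfp978 had the widest, of 2782 bp. Edn3, which encodes the secreted peptide endothelin-3, had one of 1514 bp. The others were Zfp985 (1040 bp), Ms4a4c (658 bp), a membrane protein gene of blood cells, Zfp982 (656 bp), Slco1a4 (622 bp), an organic anion transporter gene, and Zfp979 (596 bp).

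Lap2alpha regions of WT cells were more frequent at constant than at remaining regions. At 16 cycles 1054 constant regions overlapped one, 11.7% (11.1 to 12.4), against 7.5% of the remaining, 9.18% of the WT-only and 7.7% of all regions. At 20 cycles 1396 did, 15.6% (14.8 to 16.3), against 9.48%, 10.9% and 9.78%. The constant share was the higher one on 17 of 18 chromosomes at 16 cycles and on 18 of 18 at 20 cycles. Weighted to the widths of the constant regions, the remaining regions stood at 9.17% and 11.4%. Both Lap2alpha lists held 213 constant regions, 2.37% (2.08 to 2.71), against 1.163% of the remaining and 1.22% of all.

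Within the constant regions Lap2alpha went with the number of lamin lists at 16 cycles that held the region. At 16 cycles Lap2alpha was listed at 6.79%, 9.92%, 14.2%, 21.8% and 35.6% of members in 0, 1, 2, 3 and 4 lamin lists, and at 20 cycles at 12.7%, 14.6%, 17.6%, 19.6% and 28.8%. Median width rose along the same series, from 458 bp to 723 bp. Among members of at least 500 and under 1000 bp, with medians of 658 bp and 664 bp, the Lap2alpha shares at 16 cycles were 7.71% at 0 lists and 34.1% at 4. Of the 160 members in 4 lists, the 139 outside the zinc finger stretch had Lap2alpha at 28.8% at 16 cycles and 25.9% at 20 cycles, and the 21 inside it at 81.0% and 47.6%. CHD4 in WT at 16 cycles moved along as well, from 0.52% at 0 lists to 11.9% at 4. So did WT BRG1 at 16 cycles, from 0.48% to 5%, and KO CHD4 at 16 cycles, from 0.679% to 4.38%. KO BRG1 at 16 cycles stood at 1.04% and 1.25%. Of the 139 members outside the zinc finger stretch, 2.88% overlapped WT BRG1 and 9.35% WT CHD4 at 16 cycles. At 20 cycles WT BRG1 stood at 5.36% at 0 lists and 5.63% at 4, and KO BRG1 at 2.92% and 4.38%. Compared with members in 0 lists, members in 4 were thus listed more often for Lap2alpha and, at 16 cycles, for CHD4 and WT BRG1. The BRG1 shares stayed low.

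**Figure D2:**
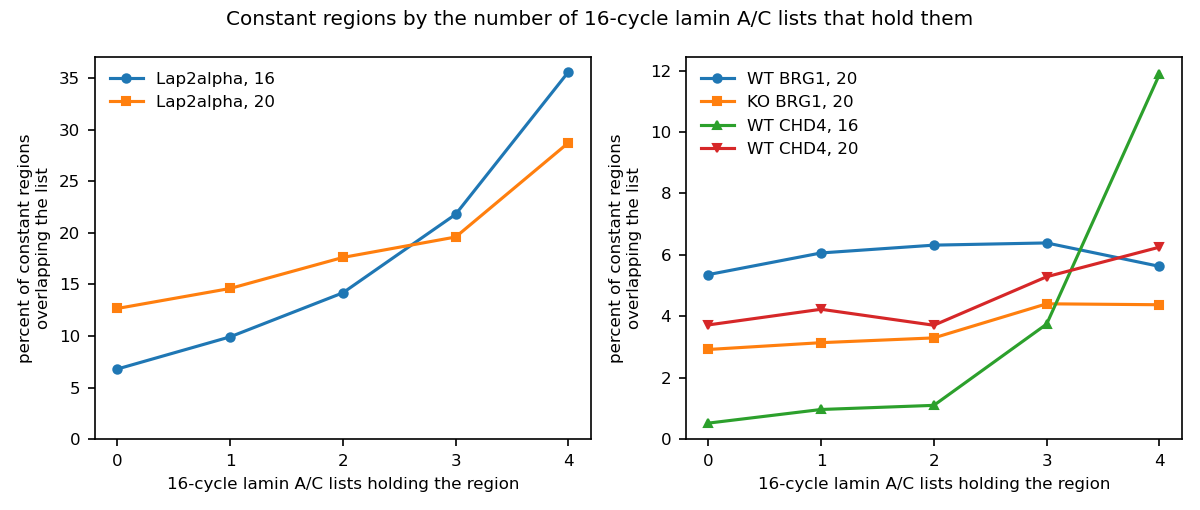
Percent of constant regions overlapping Lap2alpha lists (left) and BRG1 or CHD4 lists (right) by the number of lamin A/C lists at 16 cycles, 0 to 4, that hold the region; groups have 2502, 3217, 2185, 908 and 160 regions, and legend numbers are cycles of sonication. Lap2alpha at 16 cycles goes from 6.79% to 35.6%, while WT BRG1 at 20 cycles stays between 5.36% and 6.39%. WT BRG1 at 16 cycles, which is not drawn, goes from 0.48% to 5%.

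Of the 10 widest constant regions with Lap2alpha at both sonication lengths, 4 lay inside or nearest to a zinc finger gene of the chromosome 4 stretch. The widest was chr4:147125227-147128008 inside Zfp978, of 2782 bp, which was in all 4 lamin lists at 16 cycles and in no BRG1 or CHD4 list. The second, chr4:146492756-146495252, lay 6747 bp from Zfp981 and was also in the WT BRG1 and WT CHD4 lists at 16 cycles. Others lay inside Cdh8, a type II cadherin gene (chr8:99374969-99376644, 1676 bp), 98376 bp from Ralyl on chromosome 3 and 153712 bp from Sorcs1 on chromosome 19.

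The overlap with Lap2alpha was local. At the centre of constant regions 13.5% were covered by the Lap2alpha list at 20 cycles, and 5 kb away 1.73%; for remaining regions the values were 8.59% and 1.35%. WT 3A6 at 16 cycles covered 36.6% of constant centres and 5.8% of points 5 kb away, against 19.8% and 3.24%. In percentage points, constant regions thus differed from the remaining most at the region itself. In proportion, the WT 3A6 values stood about as far apart at 5 kb as at the centre. At 50 kb they were still 4.62% against 3.04%.

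**Figure D3:**
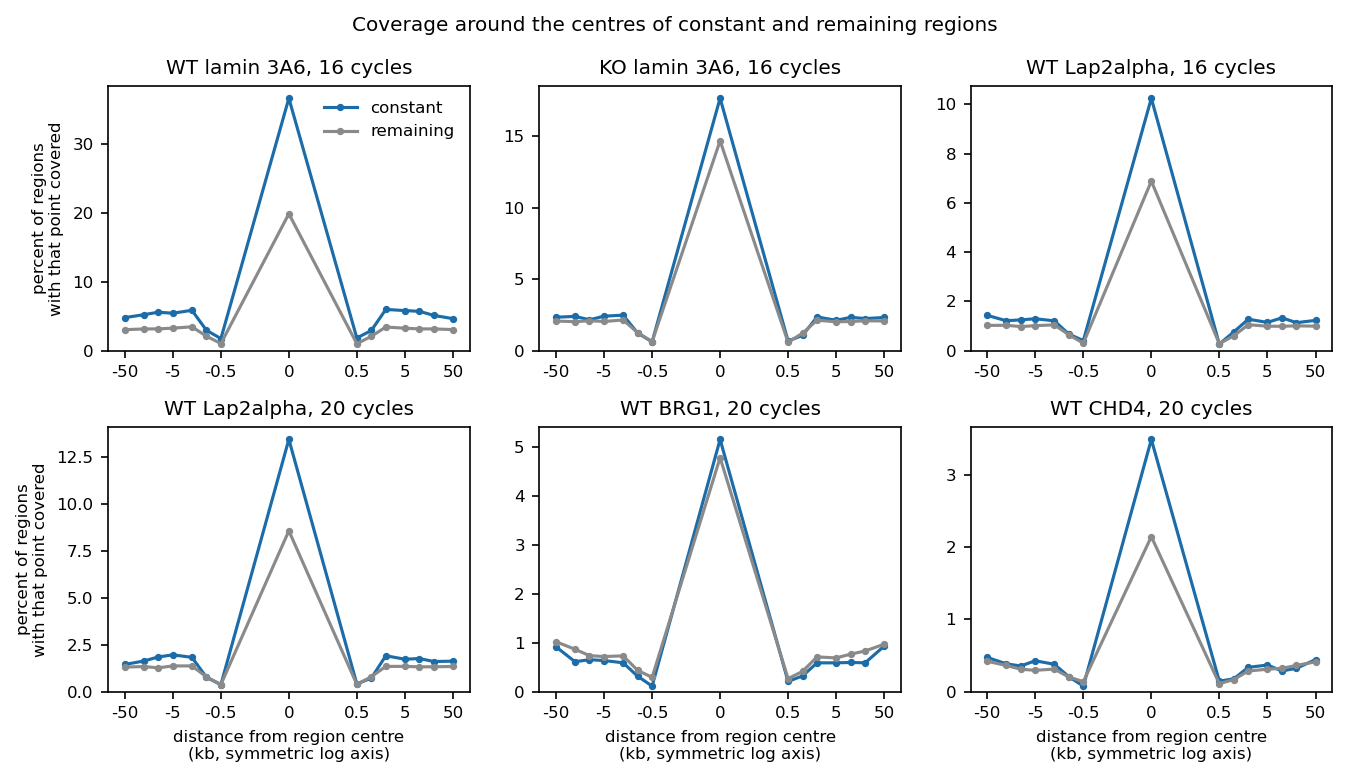
Percent of constant and remaining regions whose point at a given distance from the region centre (x axis, kb, symmetric log) is covered by the 6 lists named above the panels. In these 6 lists coverage peaks at the centre and is lowest at 0.5 kb, and for WT BRG1 it is higher at 50 kb than at 5 kb; the 2 curves are apart for WT lamin 3A6 and Lap2alpha and close for WT BRG1.

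BRG1 was listed at few constant regions, and its share there was near that of the remaining regions, except in KO at 16 cycles, where it was lower. The WT-only regions stood at 5.2% (WT) and 2.95% (KO) at 20 cycles and at 1.01% (WT) and 2.1% (KO) at 16. WT BRG1 at 20 cycles overlapped 534, 5.95% (5.48 to 6.46), against 5.16% of the remaining and 5.2% of all regions. KO BRG1 at 20 cycles overlapped 293, 3.27% (2.92 to 3.65), against 2.89% and 2.91%. At 16 cycles the constant share was the lower one: WT BRG1 overlapped 70, 0.78% (0.618 to 0.985), against 0.888% and 0.883%, and KO BRG1 102, 1.14% (0.937 to 1.38), against 1.66% and 1.63%. Weighted to the widths of the constant regions, the remaining shares were 5.38% (WT) and 2.97% (KO) at 20 cycles and 0.776% (WT) and 1.63% (KO) at 16, so that for WT at 16 cycles the constant share was no longer the lower one. The mean difference over the 4 lists was 0.13 percentage points, and it was -0.28 when the remaining regions were weighted to the chromosomes of the constant ones. By chromosome the KO list at 16 cycles was lower at constant regions on 16 of 18.

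Any BRG1 list held 902 constant regions, 10.1% (8.44% of all), but all 4 BRG1 lists held only 6, 0.0669% (0.0307 to 0.146), against 0.253% of the remaining and 0.244% of all. Both WT and neither KO BRG1 list held 4 (0.0446%; 0.137% of all), and both KO and neither WT list 23 (0.256%; 0.35% of all). The 6 in all BRG1 lists were spread over 5 chromosomes. The widest, of 992 bp, was chr19:25906297-25907288, 227283 bp from Dmrt2, followed by one of 608 bp on chromosome 2, 571155 bp from the nearest protein-coding gene. The others lay 22108 bp from Spef2, 118060 bp from Satb1, a gene for a genome organiser, inside Nell2, and 102016 bp from Ednra, the endothelin A receptor gene. None of the 6 was in all 4 lamin lists at 16 cycles, but only 1.78% of all constant regions were.

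CHD4 was listed more often at constant than at remaining regions at 20 cycles in both genotypes and at 16 cycles in WT. WT CHD4 overlapped 368 constant regions, 4.1% (3.71 to 4.53), against 2.4% of the remaining, 3.09% of the WT-only and 2.49% of all; weighted to widths the remaining share was 3.08%. KO CHD4 at 20 cycles, a short list of 7283 regions, overlapped 29, 0.323% (0.225 to 0.464), against 0.0816% and 0.0935%. At 16 cycles WT CHD4 overlapped 121, 1.35% (1.13 to 1.61), against 0.99% and 1.01%, and KO CHD4 91, 1.01% (0.827 to 1.24), against 1.02% and 1.02%. For these 3 lists the width-weighted remaining shares were 0.114%, 1.03% and 1.02%. The WT list at 20 cycles was higher at constant regions on 14 of 18 chromosomes. No constant region was in all 4 CHD4 lists, and 6 of all WT 3A6 regions were, 0.00328%.

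BRG1 and CHD4 seldom met at the same constant region: 45 were in both WT lists at 20 cycles, 0.502%, against 0.481% of the remaining and 0.482% of all. Lap2alpha met WT CHD4 at 78, 0.869%, against 0.375% and 0.399%, and WT BRG1 at 99, 1.1%, against 0.691% and 0.711%. Both Lap2alpha lists and any BRG1 list met at 31, 0.346%, against 0.161% and 0.17%. For most constant regions, 5833 or 65.0%, no list of Lap2alpha, BRG1 or CHD4 held an overlap, against 75.6% of the remaining and 75.1% of all.

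Constant regions were concentrated on a few chromosomes. On chromosome 2, 1422 of 14281 WT 3A6 regions were constant, 9.96% (9.48 to 10.5), and on chromosome 8, 1607 of 17698, 9.08% (8.67 to 9.51). Chromosome 17 followed with 7.91%, chromosome 15 with 6.99%, chromosome 9 with 6.51% and chromosome 5 with 5.99%. Chromosomes 1, 16 and 13 had the lowest shares, 1.05%, 0.87% and 0.814%, and chromosome Y had 1 WT 3A6 region, which was not constant. Chromosome 2 thus held 15.8% of the members on 6.69% of the assembled length, and chromosome 8 17.9% on 4.75%.

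List density moved with these shares in part, and its role was not tested. On chromosome 8, 58.3 bp per kb were covered by WT 3A6, 51.2 by WT E1, 30.5 by KO 3A6 and 64.1 by KO E1 at 20 cycles, against 24.4, 18.0, 22.2 and 29.9 over the genome. Chromosome 2 was less dense, at 33.4, 25.9, 29.4 and 40.3 bp per kb. Chromosome 19 was dense in WT, at 50.8 and 43.5, but had 22.0 and 28.5 in KO, and 4.24% of its regions were constant. BRG1, which did not choose the regions, was also dense on chromosomes 19, 11, 15 and 8, at 60.03, 55.5, 54.0 and 50.8 bp per kb in WT at 20 cycles against 36.1 over the genome.

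**Figure D4:**
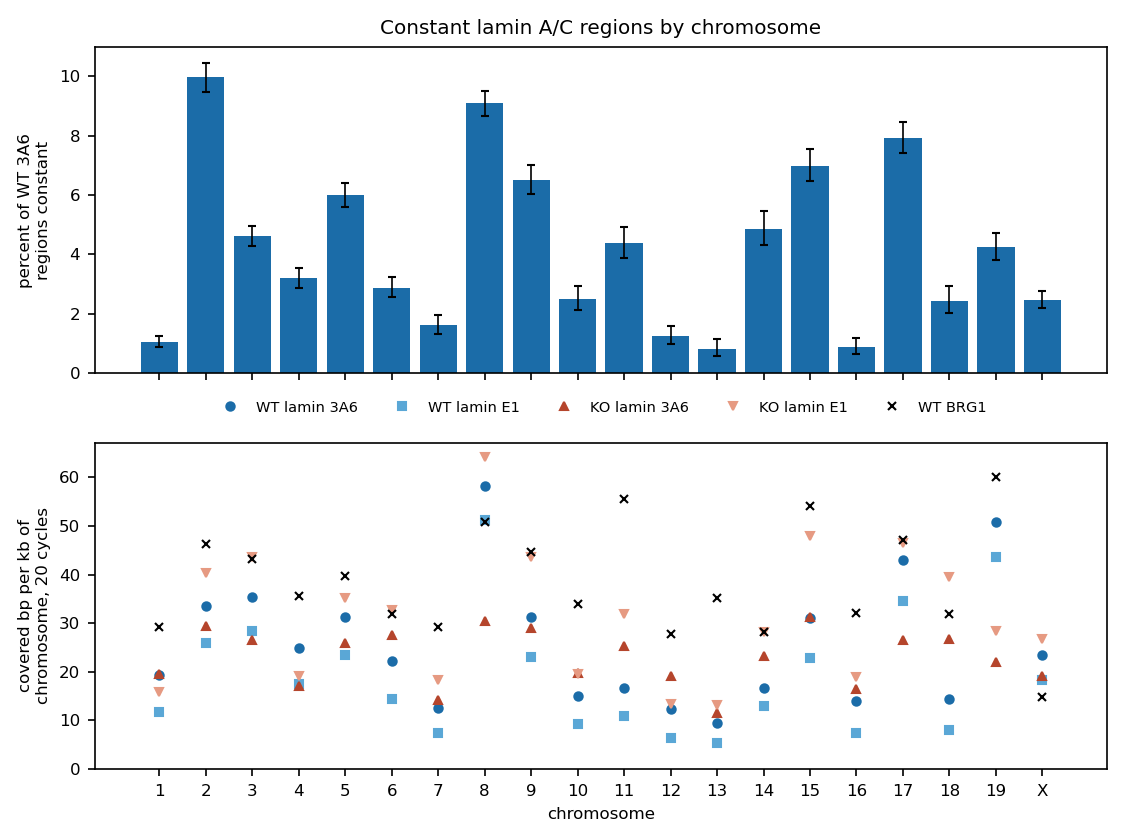
Top, percent of WT 3A6 regions at 20 cycles that were constant on each chromosome, with 95% Wilson intervals; bottom, bp covered per kb of chromosome by the 4 lamin A/C lists that chose the regions and by WT BRG1, all at 20 cycles. Chromosomes 2, 8 and 17 have the 3 highest shares, and on chromosome 8 the WT and KO E1 lamin lists are at their densest.

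Within chromosome 2 the members gathered toward the end of the chromosome. Between 160 and 180 Mb, 715 of 3276 WT 3A6 regions were constant, 21.8%, against 4 of 490 (0.816%) in the first 20 Mb. In that end segment WT 3A6 covered 91.9 bp per kb, WT E1 77.7, KO 3A6 45.8 and KO E1 84.7, while WT BRG1 covered 40.7. On chromosome 8 the segment from 100 to 120 Mb was the richest, with 507 of 3914 regions constant, 13.0%.

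Joined where they lay 50 kb or less apart, the members formed 2514 clusters. There were 1295 single regions, and 391 clusters of at least 5 held 61.7% of the members; WT-only regions, which are more numerous, had 55.8% in such clusters. This share depends on how many members there are, and it was 11.6% for the 2039 regions left under a 50% overlap. The 10 largest clusters, of 543 to 1323 kb, held 1063 members, 11.8%, with 5 clusters on chromosome 2 and 2 on chromosome 8.

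Of these 10 clusters, 9 held 2 or fewer protein-coding genes each. The largest, chr2:169004048-170075220, held 182 members, 79 of them in Tshz2, a teashirt-type zinc finger transcription factor gene and the only protein-coding gene there. In it 34.8% of WT 3A6 regions were constant. The next, chr2:178701757-179827216, held 158, with 61 in the cadherin gene Cdh4. The third and the fourth were chr2:170930176-172018656, with 114 members and no protein-coding gene, and chr9:111931562-113254400, with 110 members, 16 of them in Arpp21, which encodes a cAMP-regulated phosphoprotein.

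On chromosome 8 the large clusters were chr8:118410985-119272565, with 107 members, all inside Cdh13, and chr8:112109788-112823434, with 89, of which 33 were in Cntnap4, a contactin-associated protein gene. Clusters of 88, 76 and 71 members on chromosomes 5, 2 and 2 contained no protein-coding gene. The 10th, chr5:145598560-146141262, with 68 members, was the exception with 5 protein-coding genes, all Cyp3a genes of drug metabolism, with 5 members in Cyp3a59, 3 in Cyp3a25, 2 in Cyp3a11 and 2 in Cyp3a44; these genes are close copies, and sharing of reads between them was not tested. In the largest cluster the 16-cycle lists covered 7.39% (WT 3A6), 5.31% (KO 3A6), 3.6% (WT E1) and 6.67% (KO E1) of the length, Lap2alpha 0.362% and 2.17% at 16 and 20 cycles, and WT BRG1 0% and 0.471%.

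The widest members differed among themselves at 16 cycles. The widest of all, chr2:174744572-174747791 (3220 bp), lay 12827 bp from Edn3 and was in all 4 lamin lists at 16 cycles but in no Lap2alpha, BRG1 or CHD4 list. The second, chr8:114296723-114299678 (2956 bp) inside Vat1l, was in both WT and neither KO lamin list at 16 cycles. One of 2725 bp inside Cdh4, chr2:179443393-179446117, was in none of the 14 lists that had not chosen it.

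By gene density the members were somewhat less confined to gene-poor DNA than other lamin regions. Bins of 1 Mb with 2 or fewer coding genes cover 33.5% of the span, and in them lay 46.6% of constant regions (45.6 to 47.6) against 54.0% of the remaining, 58.3% of the WT-only and 53.6% of all. In bins with 11 or more genes lay 15.6% (14.8 to 16.3) against 12.3%, 10.9% and 12.5%, and in the bins between 37.8% against 33.7%, 30.9% and 33.9%. The gene-poor share was lower for constant regions on 13 of 18 chromosomes and higher on 5. In bins of 500 kb the difference was -2.55 points in place of -7.38.

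Relative to genes the members differed little from other lamin regions. Gene bodies held 2600 of them, 29.0% (28.0 to 29.9), against 27.8% of the remaining and 27.9% of all, with gene bodies making up 37.9% of the span; 9 chromosomes were higher and 9 lower. Within 1 kb of a gene end were 156, 1.74% (1.49 to 2.03), against 1.48% and 1.49%, where 2.91% of the span lies. In no protein-coding gene lay 71.0%, against 72.1% of all, among them 8.83% in another kind of annotated gene (8.08% of all) and 62.2% in no annotated gene (64% of all). Over 100 kb from a protein-coding gene lay 45.8%, against 47.3% and 47.2%.

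A constant region lay in the body of 515 of 21887 protein-coding genes, 2.35%, and at an end of 144, 0.658%. Any WT 3A6 region at 20 cycles, constant or not, lay in the body of 3049 genes, 13.9%, whose lengths were not compared. Genes with a constant region in the body were long, with a median of 150 kb against 17.2 kb for all genes. Among 557 genes of 300 kb or more 170 held one, 30.5%. The load was uneven, with 75 genes of 10 or more regions holding 1665 and 243 genes holding 1 each.

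Of the 10 genes with the most constant regions 9 are described, all of them long, from 219.5 to 1643 kb. Cdh13, the gene of T-cadherin, held 109 on chr8:118140017-119324929. Tshz2 held 79, Cdh4 61 and Csmd1, which encodes a large complement-control protein of neurons, 54. Clstn2 (calsyntenin-2) and Sdk1 (sidekick-1), both genes of synaptic adhesion proteins, held 52 each. Phactr3, a phosphatase and actin regulator gene, held 46, Cpne4, a copine gene, 41 and Fry, a furry homologue gene, 36.

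Coverage of these gene bodies shows how far the lists kept together. In Cdh13 the lists at 20 cycles covered 25.01% (WT 3A6), 22.0% (WT E1), 7.9% (KO 3A6) and 22.4% (KO E1) of the body, and those at 16 cycles 4.77%, 3.42%, 1.43% and 6.06% in the same order. In Tshz2 they covered 33.4%, 28.8%, 15.2% and 26.6% after 20 cycles, then 5.47%, 1.84%, 4.45% and 7.05% after 16. In Phactr3 they were 34.6%, 30.5%, 15.7% and 30.3%, and 5.32%, 2.87%, 3.1% and 9.99%. The KO 3A6 list was the lowest of the 4 at 20 cycles in each of these 3 genes; its regions are narrow, with a median of 254 bp and none above 1303 bp, against 322 bp and 3220 bp in WT 3A6.

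Lap2alpha covered little of the 9 genes, at 20 cycles more than of the genome in each and at 16 cycles in only part of them. Its lists covered 0.643% of the genome's span at 16 and 0.944% at 20 cycles. They covered 1.0% and 2.4% of Cdh13, 0.369% and 2.25% of Tshz2, and 2.09% and 2.1% of Csmd1, so that Tshz2 at 16 cycles was the only one of these values below the genome. The BRG1 lists covered 0.521% (WT, 16 cycles), 1.42% (KO, 16), 1.72% (WT, 20) and 1.99% (KO, 20) of Cdh13, and 0%, 0.0554%, 0.557% and 0.392% of Tshz2. Over the span of the genome the same lists covered 1.59%, 2.69%, 3.61% and 3.11%, so both genes were below that level in all 4 BRG1 lists. The CHD4 lists covered 0.326% (WT, 16 cycles), 1.06% (KO, 16), 1.75% (WT, 20) and 0.0496% (KO, 20) of Cdh13, and 0%, 0.231%, 0.663% and 0.0672% of Tshz2, against 0.884%, 1.92%, 2.0% and 0.0861% of the span, again below it in each list.

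**Figure D5:**
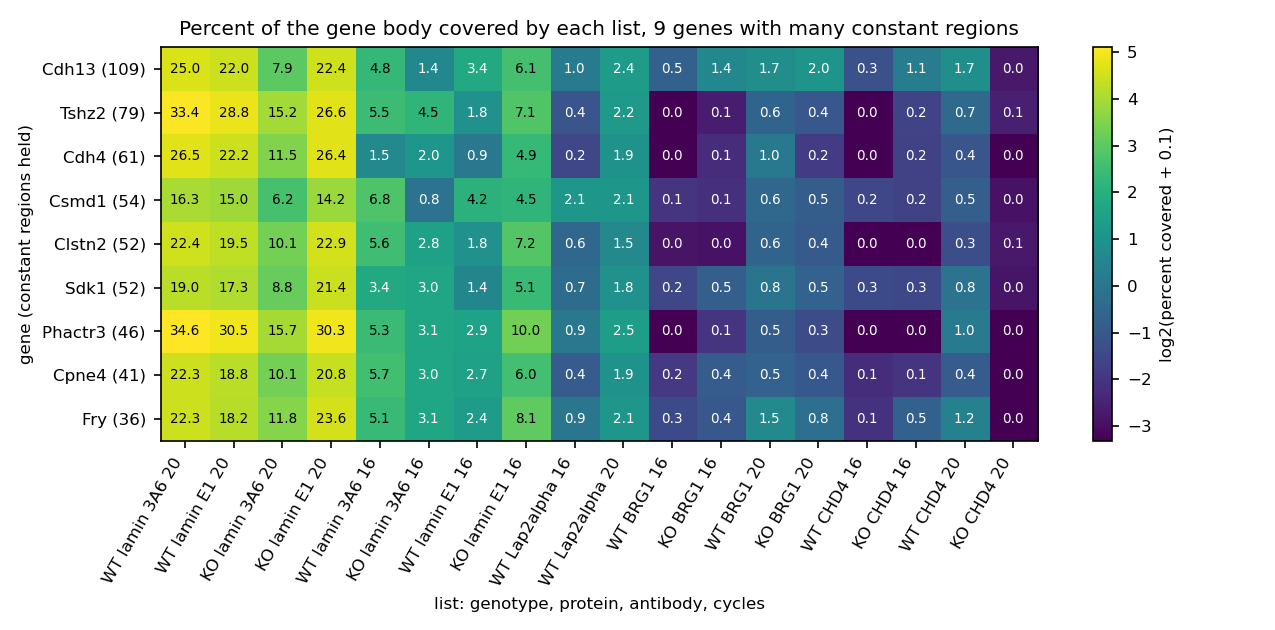
Percent of the gene body covered by each of the 18 lists (columns) in 9 of the 10 genes with the most constant regions (rows, number of regions in brackets); colour is log2(percent + 0.1). The 4 left columns are the lists that chose the regions and are the highest in each row except that of Csmd1, where WT 3A6 at 16 cycles (6.83%) is above KO 3A6 at 20 (6.24%), and the BRG1 and CHD4 columns are mostly below 2%.

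Genes with the largest part of the body in constant regions included short ones. Sult1c1, a sulfotransferase gene on chromosome 17, had 19.6% of its 29.0 kb covered by 5 regions. On chromosome 2 the docking protein gene Dok5 had 19.2% (27 regions), Phactr3 17.6%, Bmp7, which encodes a bone morphogenetic protein, 15.5% (12) and Tshz2 14.8%. Vat1l had 14.3% (27), Zfp982 14.2% (15) and Tfap2c, a transcription factor gene, 14.2% in 1 region. Mup5, a major urinary protein gene with close copies, had 13.5% (4), and AAdacl4fm3 13.5% (3). In Zfp982 the 16-cycle lists covered 17.9% (WT 3A6), 4.71% (KO 3A6), 13.6% (WT E1) and 10.99% (KO E1) of the body, and in Bmp7 0.274%, 2.25%, 0% and 5.27%, so these 2 genes, alike in the constant share, were far apart at 16 cycles.

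Gene lists chosen with earlier results known showed where constant regions lay and where they did not. Of 36 long neuronal adhesion and receptor genes 24 held a constant region, among them Cdh13, Csmd1 and Fam155a (24 regions). Their length goes with this: 5.36% of the WT 3A6 regions in their bodies were constant, against 5.1% over all gene bodies. Type II cadherin genes had 4 of 13, namely Cdh8 (18 regions), Cdh12 (10), Cdh10 (8) and Cdh6 (3). Glutamate receptor genes had 9 of 26, with Grid1 (16), Grin2b (12), Grm7 (7) and Grm3 (6) in front, and GABA-A receptor genes 2 of 16, Gabrb1 (3) and Gabrg3 (1). The constant share of WT 3A6 regions was 6.21% in the cadherin, 3.74% in the glutamate receptor and 1.01% in the GABA-A receptor list.

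Clustered families of short genes varied, beside the 2.35% of all protein-coding genes that held a constant region. Of 71 defensin genes, which encode small antimicrobial peptides and lie mainly on chromosome 8, 9 held a constant region, and 26.3% of the 57 WT 3A6 regions in the family were constant; Defb1 held 3 and Defb14, Defb5 and Defb46 2 each. Zinc finger genes had 13 of 424, with 10.2% of their 738 WT 3A6 regions constant, led by Zfp831 on chromosome 2 (17), Zfp982 (15), Zfp978 (13) and Zfp985 (7). Cytochrome P450 family 2 genes had 7 of 48, with 4 regions in Cyp2j8 and 3 in Cyp2c39. Olfactory receptor genes had 20 of 1110, 1.8%, and vomeronasal receptor genes 9 of 353, 2.55%, both near the share of all genes, as were zinc finger genes with 3.07%. The receptor genes are short, with medians of 0.95 and 0.96 kb against 17.2 kb. Constant regions covered 0.606% of the olfactory and 0.191% of the vomeronasal gene length, against 0.149% over all genes. The constant share of WT 3A6 regions was 5.65% in olfactory, 2.71% in vomeronasal and 3.87% in cytochrome genes, against 5.1% over all gene bodies. Serpin genes had 1 of 63, 1.59%, Serpini2 (2), and UDP-glucuronosyltransferase genes 1 of 21, Ugt2b37 (1), with 4.17% and 1.92% of their WT 3A6 regions constant.

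At a share of 2.35% over all genes, lists of this size can hold none without standing apart, so the following zeros are a description. No constant region lay in the body of any of 25 housekeeping genes, 33 genes of the cell cycle, 32 genes of fibroblasts and their matrix, 39 HOX genes, 63 replication-dependent histone genes or 23 genes of the nuclear envelope. Most of them had no WT 3A6 region to begin with, since such a region lay in 1 fibroblast gene, 1 nuclear envelope gene, 1 HOX gene and 0 genes of the other 3 lists. Of genes of other cell types in skin, 0 of 19 keratinocyte genes, 0 of 12 endothelial genes and 2 of 16 leukocyte genes held one, the last being Adgre1 (4 regions) and Ms4a1 (1), and 0 of 37 natural killer complex lectin genes did.

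The promoters that constant regions touched were poor in CpG. Constant regions overlapped 60 of 32851 RefSeq promoter windows, belonging to 51 genes of which 21 code for protein, and 26 windows lay wholly inside one. Some genes have several overlapping windows that share most of their bases. The values below count each window, so the 60 are not independent promoters. Counted by region, 51 constant regions, 0.568%, overlapped a window, against 0.417% of the remaining and 0.424% of all. The median GC content of the 60 windows was 46.3%, against 46.0% in the 765 windows that remaining regions overlapped and 52.7% in all windows, and the median number of CpG was 4, 3 and 7. At least 15 CpG were in 6.67%, 8.63% and 34.6% of windows. The low CpG content was thus shared with other lamin regions.

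Short motifs, counted by window with overlapping windows of a gene kept, gave small differences. GAGAG, searched on both strands and so also as CTCTC, was in 48.3% of the 60 windows, 60.4% of those under remaining regions and 62.0% of all. TGANTCA, the form bound by AP-1 factors, was in 11.7%, 10.2% and 7.81%, and TATAAA in 10.0%, 19.5% and 13.6%. A run of 8 A or T bases was in 11.7%, 9.28% and 7.87%. Such matches are letters in a window and not binding sites, and of the windows printed above Robo2 held 3 GAGAG matches and Dynlrb2 1. None of 1005 annotated microRNA hairpins overlapped a constant region, and 9 overlapped a WT 3A6 region at 20 cycles.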

How the data were processed

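The authors deposited each library as intervals (3 columns: chromosome, start, end), so the unit is position in bp; the deposited lists give no score, height or p-value. Per the submitters' processing notes the build is GRCm38 and the tools are MACS2 2.1.4, HOMER 4.11.1, SAMtools, deepTools and bedtools. Their roles, the calling threshold, the control and any pooling were not given in the sources used here. Read depth is unknown, so a longer list is not more protein.

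Overlapping intervals of a list were merged and intervals of width 0 dropped (273 in WT 3A6 at 20 cycles), as were unplaced and mitochondrial sequences. Overlap meant 1 bp or more. Shares carry 95% Wilson intervals, and no test was run, since every group had 1 library. Genes, promoters and microRNAs came from RefSeq tables for GRCm38.p6; the regions' own sequence was not used here. Python 3.11.15, numpy 2.4.6 and pandas 2.3.3 were used, and the interval functions were tested on simulated data.

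Named genes were the 10 with the most constant regions, the 10 of 5 kb or more with the largest covered percent, gene ends in all 8 lamin lists, the 10 largest clusters, the widest regions with Lap2alpha or BRG1, and up to 4 genes of each of 21 gene lists. Predicted, olfactory and vomeronasal genes were counted only, and 1 gene that met the rule is not reported here. Members and lists were chosen with earlier results of these data known. The alternatives weighted to chromosomes, without chromosomes 2 and 8, and without the KO CHD4 list at 20 cycles were added after seeing the data.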

Additional observations from a re-analysis of the deposited data

Results flagged for a closer look

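The share of constant regions found again at 16 cycles moved in opposite directions with the 2 lamin A/C antibodies. KO minus WT was -21.1 percentage points for 3A6, from 41.8% to 20.8%, and 11.1 points for E1, from 24.2% to 35.3%. The directions were the same over all WT 3A6 regions, -6.29 and 3.18 points. Both sets start from a WT 3A6 list, and the part of this choice was not tested. Both rest on 1 library per genotype, and the difference between the antibodies was not tested.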

How the results depend on the processing

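No paired analysis was possible because the labels carry no replicate numbers and each group has 1 library. Values below are percentage points unless stated, with the reported value first. The number of constant regions was 8972, 2039 when each list had to cover 50% of the region and 4804 at 500 bp or wider. Constant minus remaining at 16 cycles, as the mean of 4 lamin lists, was 17.8, then 16.5 (50%), 22.8 (intervals within 1 kb merged), 15.9 (500 bp or wider), 13.7 (weighted to widths) and 16.2 (weighted to chromosomes). Under the same 5 settings Lap2alpha was 5.17, then 4.156, 8.97, 4.07, 3.38 and 4.2. BRG1 was 0.133, then 0.708 (1 kb) and reversed to -0.281 (weighted to chromosomes), and CHD4 0.573, then 0.938 (1 kb). KO minus WT at 16 cycles was -21.1 for 3A6, then -16.5 (50%), -23.7 (1 kb), -26.1 (500 bp or wider) and -17.1 (without chromosomes 2 and 8), and 11.1 for E1, then 14.3 (50%). The mean over both antibodies, in which these opposite values cancel, was -4.98, then -1.08, -6.36, -8.08 and -2.52 under the same 4 settings. Gene-poor bins gave -7.38, then -10.3 (50%), -2.55 (bins of 500 kb) and -8.98 (without chromosomes 2 and 8), and gene bodies 1.14, then 2.24 (50%) and 2.12 (500 bp or wider). The percent of members in clusters was 61.7, then 11.6 (50%), 53.0 (500 bp or wider), 35.5 (joined at 20 kb) and 78.6 (joined at 100 kb), and the highest percent of any chromosome 9.96, then 1.961 (50%) and 22.4 (500 bp or wider). Fewer members under the 50% rule and longer regions under merging follow from those settings; other causes were not tested. Depth is unknown, so an unlisted region is not shown to be unbound.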

Other observations

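Among the 160 constant regions in all 8 lamin lists, 2 were also in 6 of the 10 lists of Lap2alpha, BRG1 and CHD4, the highest number seen; they were singled out after their values were seen. They were chr3:3001238-3002437, of 1200 bp, at the start of the assembled chromosome, and chr11:34681673-34682394, of 722 bp, inside Dock2, a guanine nucleotide exchange factor gene of blood cells. A further region of chromosome 3, chr3:3014623-3015718, and one of the zinc finger stretch, chr4:147518468-147520475, were in 5 of the 10.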
